A study of Mus musculus with 9 samples.

Results

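The 10 genes described here belong to the epidermal growth factor receptor (EGFR) system and were followed across 9 mouse liver tumors. They were listed by symbol: the EGFR ligands Areg, Ereg, Hbegf, Tgfa, Btc and Egf, the ERBB receptors Egfr, Erbb2 and Erbb3, and the feedback inhibitor Errfi1. All 10 were found among the 24421 symbols measured, and 8 of them passed the filter on low values that left 14215 genes for testing. The tumors came from C57BL/6 mice aged 11 weeks and fall into S7HP+Snail (tumors 13, 14 and 15), S7HP (tumors 9, 11 and 12) and LHP (tumors 2, 3 and 6), with 3 tumors each. Column headers tie LHP to a Luc (luciferase) construct, S7HP to Smad7, an inhibitor of the TGF-β pathway, and S7HP+Snail to Smad7 together with the transcriptional repressor Snail. The letters H and P, which all groups share, are not spelled out in the labels. In published work on this tumor model they stand for an activated HRAS oncogene and a short hairpin RNA against the tumor suppressor p53, so the LHP controls would carry both. The labels give neither the promoters of the constructs nor the cells that took them up, nor whether each tumor is from its own animal. The p-values therefore rest on the variation among these libraries, which may be partly technical.

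EGFR ligands are made as membrane-bound precursors. Proteases, mainly of the ADAM family with their iRhom partners, cut them loose, and the freed ligand makes EGFR pair with itself or with another ERBB receptor and signal through RAS. ERBB2 binds no ligand of its own, ERBB3 has little kinase activity and binds neuregulins, and the protein encoded by Errfi1 (MIG6) docks on the active EGFR kinase and shuts it down. In liver, EGFR is abundant on hepatocytes, and its ligands act in regeneration after injury.

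Values are log2 of a quantile-normalized count of 3′ reads plus 1, taken from each gene's polyadenylated end, so a long transcript gives no more reads than a short one. Library depth is not preserved, and the 3rd lowest value above 0 in a library lay between 1.22 and 2.64. The level of Smad7 lay between 6.77 and 8.0 in S7HP+Snail, 6.28 and 6.81 in S7HP and 9.49 and 10.50 in LHP tumors, and Snai1 between 7.31 and 8.53, 6.17 and 6.92, and 9.93 and 11.16 in the same order. These levels run against the group names. Smad7 was lower by 3.55 ± 0.38 (SE) in S7HP and by 2.71 ± 0.38 in S7HP+Snail, each than in LHP, and Snai1 was lower by 2.59 ± 0.43 in S7HP+Snail than in LHP (limma, Benjamini-Hochberg adjusted p = 0.000691, 0.00505 and 0.00931). Against S7HP, Snai1 in S7HP+Snail differed by 1.63 ± 0.43 without passing (limma, Benjamini-Hochberg adjusted p = 0.0850). Whether the constructs carry the 3′ ends of the mouse genes, which these reads count, is not given in the sources used here. The groups are therefore called as labelled, and every direction given here is between the labelled groups. S7HP+Snail tumors correlated with each other at 0.864 to 0.900 across the tested genes, against 0.923 to 0.936 within S7HP and 0.939 to 0.945 within LHP. Of 10 hepatocyte markers 9 matched a symbol, and none of them was at 0 in all tumors of a group.

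Tgfa was the only member called in S7HP against LHP, where it was higher, and again in S7HP+Snail against S7HP, where it was lower. Areg was the only member called in S7HP+Snail against LHP, where it was lower. The other 6 tested members passed the test in none of the 3 comparisons. A call is an adjusted p under 0.05 (limma, Benjamini-Hochberg over 14215 genes). Over all tested genes 19% were called in S7HP against LHP (9.47% higher, 9.54% lower), 2.3% in S7HP+Snail against S7HP (1.01% higher, 1.29% lower) and 7.22% in S7HP+Snail against LHP (3.35% higher, 3.87% lower), so 1 call among 8 genes is near the background in the first and the last of these. In the second, 1 call among 8 genes is too few to be set apart from its background. The comparisons share tumors and are not independent. The median difference of the 8 tested members was -0.07 in S7HP against LHP, -0.98 in S7HP+Snail against S7HP and -1.38 in S7HP+Snail against LHP, beside 0.02, -0.02 and -0.0013 over all tested genes in the same order.

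**Figure D1:**
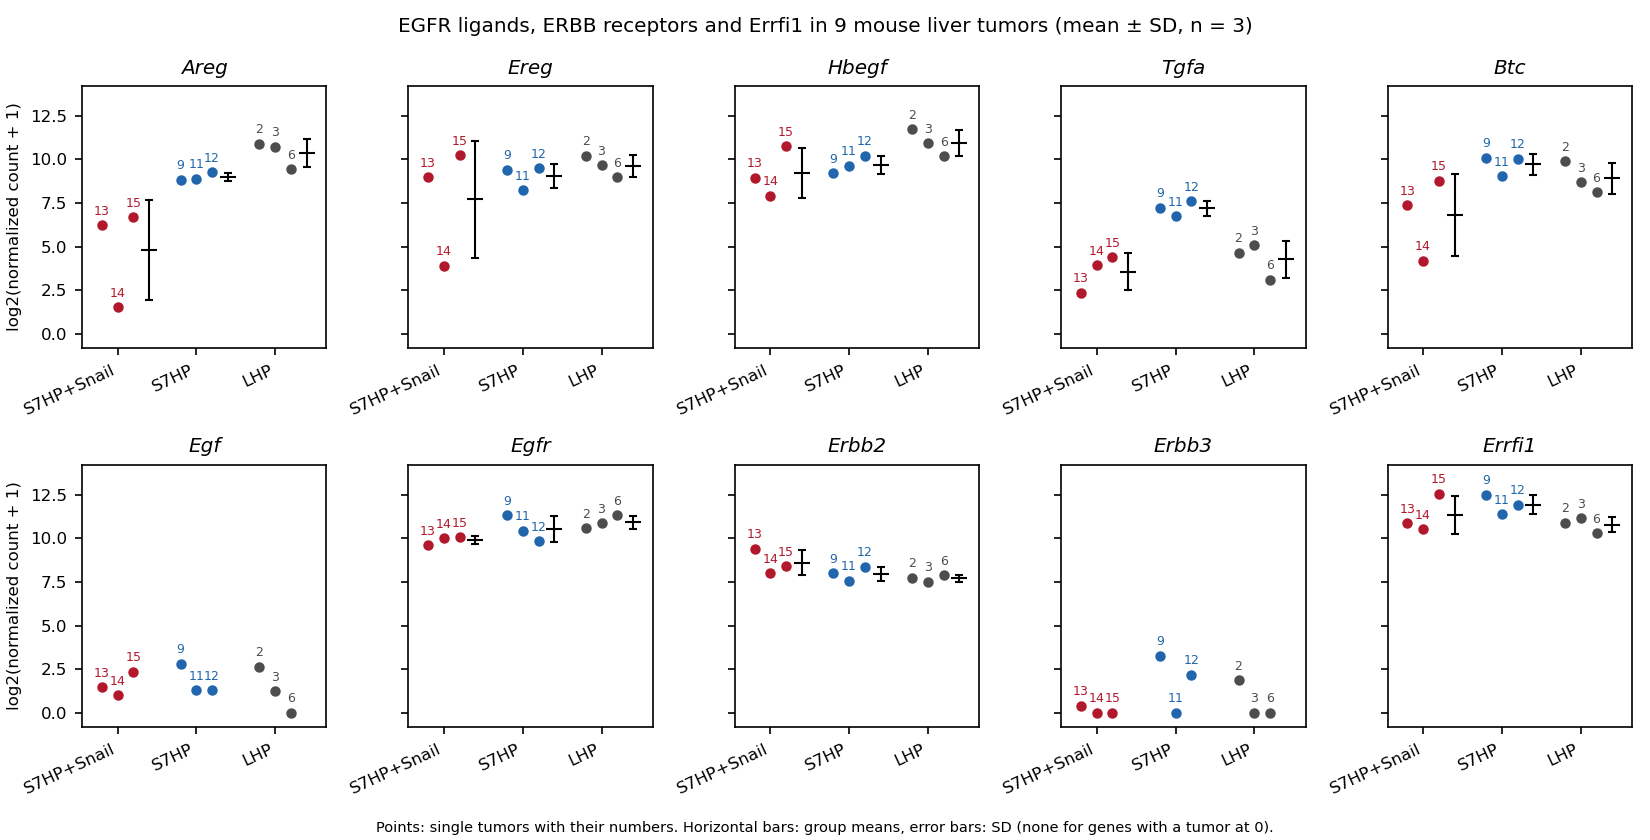
Level of each of the 10 genes in every tumor, as log2(normalized count + 1), with S7HP+Snail, S7HP and LHP from left to right. Points are single tumors with their numbers, and bars give the mean ± SD (n = 3) for the 8 genes with no tumor at 0. Tgfa stands higher in S7HP than in both other groups, and tumor 14 is the lowest point for Areg, Ereg, Hbegf and Btc.

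Tgfa encodes transforming growth factor alpha, a ligand that binds EGFR alone. Its log2 level was 2.35, 3.94 and 4.39 in S7HP+Snail tumors 13, 14 and 15, 7.24, 6.75 and 7.60 in S7HP tumors 9, 11 and 12, and 4.64, 5.09 and 3.10 in LHP tumors 2, 3 and 6. Every S7HP tumor was above every other tumor, while the S7HP+Snail and LHP tumors overlapped. In S7HP, Tgfa rose by 2.92 ± 0.70 (SE) over LHP, which is 7.57-fold (limma, Benjamini-Hochberg adjusted p = 0.019, with 9.47% of tested genes called higher). In S7HP+Snail, Tgfa fell by 3.63 ± 0.70 relative to S7HP, to a level 12.4-fold lower (limma, Benjamini-Hochberg adjusted p = 0.0312, with 1.29% of tested genes called lower). The S7HP+Snail levels are low, with tumor 13 at 2.35 beside a 3rd lowest value of 1.47 in its library, and with a pseudocount of 10 the difference was -2.84. The LHP levels are low too, with tumor 6 at 3.10 beside a 3rd lowest value of 1.74. With a pseudocount of 10 the rise of S7HP over LHP was 2.40. S7HP+Snail and LHP differed by -0.71 (95% interval -2.28 to 0.85), which did not pass (limma, Benjamini-Hochberg adjusted p = 0.563). The rise was no longer called when LHP tumor 6 (2.33) or S7HP tumor 9 or 12 was left out (limma, Benjamini-Hochberg adjusted p from 0.00714 to 0.0644 over the alternatives). The fall was no longer called when LHP tumor 2, S7HP+Snail tumor 13 (-3.03) or S7HP tumor 9, 11 or 12 was left out, or with only the 6 libraries compared (limma, Benjamini-Hochberg adjusted p from 0.0145 to 0.107).

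Marker lists of other cell types were read in the same bulk tumors, in which fewer cells of a type and less RNA per cell cannot be told apart. Over all tested genes 19% were called in S7HP against LHP, 2.3% in S7HP+Snail against S7HP and 7.22% in S7HP+Snail against LHP. The summed normalized count of the hepatocyte markers was 172800 to 407900 in S7HP+Snail, 200500 to 714300 in S7HP and 74410 to 135800 in LHP tumors. Of the 9 tested hepatocyte markers, 6 rose and none fell in S7HP against LHP, and 0 of 9 were called in S7HP+Snail against S7HP (limma, 3 at an unadjusted p under 0.05). The stellate cell and fibroblast markers summed to 15770 to 26380 in S7HP+Snail, 8270 to 12330 in S7HP and 52130 to 71970 in LHP tumors, with 6 of 10 lower in S7HP and 4 of 10 lower in S7HP+Snail, each against LHP. Cholangiocyte markers summed to 27060 to 332700 in S7HP+Snail, 52270 to 144800 in S7HP and 95910 to 184800 in LHP tumors. In S7HP against LHP, 1 of the 7 tested cholangiocyte markers rose and 1 fell, near the 19% background. Of these 7 markers 5 had no overlap between the groups, beside 42.1% of all tested genes, and their median difference was 2.13. One of them, Krt7, chosen here after its values were seen, averaged 6.37 ± 2.54 in S7HP+Snail, 10.33 ± 0.77 in S7HP and 6.33 ± 2.71 in LHP tumors (log2, SD, n = 3 each). It differed by 4.0 ± 1.43 (SE) in S7HP against LHP and by -3.97 ± 1.43 in S7HP+Snail against S7HP, with no overlap and without passing (limma, Benjamini-Hochberg adjusted p = 0.0788 and 0.185). Endothelial markers summed to 2636 to 4348 in S7HP+Snail, 1275 to 2706 in S7HP and 2306 to 3291 in LHP tumors. In S7HP+Snail against S7HP, 0 of 8 endothelial markers were called (limma, 4 at an unadjusted p under 0.05), with a median difference of 0.89. Of 8 macrophage markers 2 fell in S7HP against LHP, near the 19% background. The macrophage sums were 4677 to 9391 in S7HP+Snail, 3297 to 5838 in S7HP and 6453 to 10920 in LHP tumors. Of 4 tested neutrophil markers 0 were called in any comparison (limma, 0 at an unadjusted p under 0.05), and the sums over 5 such markers were 3495 to 32430, 6372 to 15880 and 1410 to 9976 in the same groups. Their part in the results for the EGFR genes was not tested.

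Areg encodes amphiregulin, a ligand of EGFR that lies on chromosome 5 from 91139599 to 91148432 (GRCm38, plus strand). Its log2 level was 6.22, 1.53 and 6.70 in S7HP+Snail tumors 13, 14 and 15, 8.82, 8.90 and 9.25 in S7HP tumors 9, 11 and 12, and 10.88, 10.72 and 9.43 in LHP tumors 2, 3 and 6. No pair of groups overlapped, with S7HP+Snail at the bottom, S7HP between and LHP at the top. The value of tumor 14 was close to the lowest steps of its library, where the 3rd lowest value was 1.22, and the other S7HP+Snail tumors were still below every S7HP tumor. In S7HP+Snail, Areg fell by 5.53 ± 1.13 (SE) relative to LHP, to a level 46.1-fold lower (limma, Benjamini-Hochberg adjusted p = 0.0224, with 3.87% of tested genes called lower). With a pseudocount of 10 the difference was -4.76. Without tumor 14 it was -3.88 and remained called (limma, Benjamini-Hochberg adjusted p = 0.00253). Leaving out LHP tumor 2, 3 or 6, or using only the 6 libraries compared, ended the call (limma, Benjamini-Hochberg adjusted p of at most 0.0840).

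Against S7HP, the difference of Areg in S7HP+Snail was -4.17 ± 1.13 (SE), lower in 3 of 3 tumors, which did not pass (limma, Benjamini-Hochberg adjusted p = 0.0908). It passed without S7HP+Snail tumor 14, at a smaller difference of -2.53 (adjusted p = 0.0192), without tumor 15, at -5.11 (adjusted p = 0.0461), and with a pseudocount of 10, at -3.43 (adjusted p = 0.0472), in a range up to 0.215 (limma, Benjamini-Hochberg). The spread of Areg within a group was unequal. Its SD was 2.86 in S7HP+Snail, larger than for 98% of tested genes, and 0.229 in S7HP, larger than for 22.9%. S7HP against LHP gave -1.35 ± 1.13 (SE) with no overlap and did not pass (limma, Benjamini-Hochberg adjusted p = 0.430). That difference passed with only the 6 libraries compared (adjusted p = 0.0320) and without S7HP+Snail tumor 14 (adjusted p = 0.0315), a library of neither group, in a range up to 0.627 (limma, Benjamini-Hochberg).

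Areg is part of a run of ligand genes. Between the ends of Epgn, which encodes the ligand epigen, and Btc, GENCODE release M21 lists 4 protein-coding genes on chromosome 5, in the order Epgn, Ereg, Areg and Btc, within 376 kb. Epgn was listed between 0 and 1.87 in all 9 tumors and did not pass the filter. Ereg (91074622 to 91093646, plus strand) encodes epiregulin and Btc (91357261 to 91402994, minus strand) betacellulin, which both bind EGFR and ERBB4.

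Btc had log2 levels of 7.39, 4.20 and 8.78 in S7HP+Snail tumors 13, 14 and 15, 10.10, 9.03 and 10.04 in S7HP tumors 9, 11 and 12, and 9.88, 8.70 and 8.13 in LHP tumors 2, 3 and 6. The S7HP+Snail tumors lay below every S7HP tumor and overlapped with LHP. The difference of S7HP+Snail from S7HP was -2.94 ± 0.98 (SE), which did not pass (limma, Benjamini-Hochberg adjusted p = 0.153), and it was -1.64 without tumor 14 and -3.93 without tumor 15, where it passed (limma, Benjamini-Hochberg adjusted p = 0.0471, in a range up to 0.306). Against LHP, S7HP+Snail differed by -2.12 ± 0.98 (SE; adjusted p = 0.215) and S7HP by 0.82 ± 0.98 (adjusted p = 0.595), and neither passed (limma, Benjamini-Hochberg). Leaving out 1 library put the first of these between -3.11 (without tumor 15) and -0.82 (without tumor 14), and the second between 0.43 (without LHP tumor 6) and 1.31 (without LHP tumor 2).

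Ereg had log2 levels of 8.99, 3.90 and 10.25 in S7HP+Snail tumors 13, 14 and 15, 9.41, 8.24 and 9.50 in S7HP tumors 9, 11 and 12, and 10.21, 9.68 and 8.98 in LHP tumors 2, 3 and 6. The groups overlapped in every comparison. Tumor 15 was the highest and tumor 14 the lowest of all 9, both within S7HP+Snail, and the SD of that group, 3.36, exceeded that of 98.8% of tested genes. The difference of S7HP+Snail from S7HP was -1.34 (95% interval -4.28 to 1.60) and turned to 0.57 without tumor 14, with no call in either case (limma, Benjamini-Hochberg adjusted p = 0.639 and 0.684). S7HP differed from LHP by -0.57 (95% interval -3.51 to 2.37), and S7HP+Snail from LHP by -1.91 (95% interval -4.85 to 1.03), which was -0.0047 without tumor 14 and -3.18 without tumor 15.

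Tumor 14 thus had the lowest level of Areg, Ereg, Btc and Hbegf among all 9 tumors, 4 of the 8 tested members, while it was the lowest tumor for 12.9% of all tested genes. Tgfa and Egfr were lowest in tumor 13.

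Promoter sequences are shown for Areg, Btc and Tgfa, chosen after their values were seen as the members for which no S7HP+Snail tumor reached the level of any S7HP tumor, since Snail is known to bind the E-box CAGGTG. Each runs 5′ to 3′ on the gene's strand from 250 bases before to 50 bases after the start site (RefSeq, GRCm38.p6). Capitals mark matches, on either strand, to CAGGTG, the AP-1 site TGANTCA, the cAMP response element TGACGTCA, the TATA box TATAAA and the Smad box GTCTAGAC, which do not overlap each other here.
Areg, chr5:91139349-91139648, plus strand: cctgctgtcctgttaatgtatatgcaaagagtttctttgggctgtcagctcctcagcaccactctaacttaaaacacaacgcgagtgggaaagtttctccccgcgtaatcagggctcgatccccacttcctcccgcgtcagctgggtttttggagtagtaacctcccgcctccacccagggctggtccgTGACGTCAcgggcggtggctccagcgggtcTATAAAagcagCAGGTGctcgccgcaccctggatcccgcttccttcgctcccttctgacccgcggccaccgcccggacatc
Btc, chr5:91402945-91403244, minus strand: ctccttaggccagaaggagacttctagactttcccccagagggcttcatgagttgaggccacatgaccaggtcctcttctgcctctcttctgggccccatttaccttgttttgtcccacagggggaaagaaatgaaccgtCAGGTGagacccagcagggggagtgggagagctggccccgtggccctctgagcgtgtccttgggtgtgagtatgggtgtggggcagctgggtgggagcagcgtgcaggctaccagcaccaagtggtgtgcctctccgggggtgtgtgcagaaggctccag
Tgfa, chr6:86194972-86195271, plus strand: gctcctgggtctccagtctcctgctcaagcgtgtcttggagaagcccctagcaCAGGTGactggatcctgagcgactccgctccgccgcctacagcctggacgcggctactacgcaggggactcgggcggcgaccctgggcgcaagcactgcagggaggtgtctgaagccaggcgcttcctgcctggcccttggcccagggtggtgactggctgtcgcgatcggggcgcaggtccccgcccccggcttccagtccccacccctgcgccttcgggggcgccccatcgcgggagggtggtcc

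The sequence CAGGTG begins at position -20 from the start site in Areg, -110 in Btc and -197 in Tgfa. It occurred in 3 of the 9 windows of the 7 members that had any, and in 20.2% of 32851 windows of the same length. With so few windows, that count is near the background. The windows of Egf, Egfr, Erbb2 and Errfi1 held no CAGGTG, and Ereg, Hbegf and Erbb3 had no window to search. Areg and a second start site of Errfi1 each held both TGACGTCA (1.79% of windows) and TATAAA (13.6%). TGANTCA (7.81%) and GTCTAGAC (0.213%) were found in no member's window. A match describes the letters and is no evidence of binding.

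Hbegf encodes heparin-binding EGF, a ligand of EGFR and ERBB4. Its log2 level was 8.94, 7.92 and 10.75 in S7HP+Snail tumors 13, 14 and 15, 9.20, 9.63 and 10.21 in S7HP tumors 9, 11 and 12, and 11.71, 10.93 and 10.19 in LHP tumors 2, 3 and 6. The groups overlapped in every comparison. S7HP differed from LHP by -1.26 ± 0.66 (SE; adjusted p = 0.205) and S7HP+Snail from LHP by -1.74 ± 0.66 (adjusted p = 0.136), neither of which passed (limma, Benjamini-Hochberg). The second difference passed without S7HP+Snail tumor 15, at -2.51 (limma, Benjamini-Hochberg adjusted p = 0.0246, in a range up to 0.319). S7HP+Snail against S7HP gave -0.48 (95% interval -1.95 to 0.99), and 0.16 without tumor 14.

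Egf, the founding ligand of the family, was at 1.47, 1.0 and 2.35 in S7HP+Snail tumors 13, 14 and 15, 2.81, 1.29 and 1.29 in S7HP tumors 9, 11 and 12, and 2.64, 1.22 and 0 in LHP tumors 2, 3 and 6. These log2 levels lie among the lowest steps of each library, and Egf did not pass the filter.

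The makeup of the ligand reads was set out as shares, which were not tested. The 6 ligands together had 1244, 289.3 and 3497 normalized counts in S7HP+Snail tumors 13, 14 and 15, 2973, 2199 and 3768 in S7HP tumors 9, 11 and 12, and 7407, 4892 and 2647 in LHP tumors 2, 3 and 6. The totals overlapped between all groups. The share of Areg was 5.93%, 0.653% and 2.94% in the S7HP+Snail tumors, 15.2%, 21.6% and 16.2% in the S7HP tumors, and 25.5%, 34.4% and 26.1% in the LHP tumors, with no overlap between any pair of groups. Btc made up 36.9%, 23.8% and 28% of ligand reads in the S7HP tumors, more than in any other tumor, where its share was between 5.99% and 13.4%. Tgfa made up 5.05%, 4.84% and 5.12% in S7HP tumors, against 0.285% to 0.675% in LHP tumors, and 0.331%, 4.95% and 0.572% in S7HP+Snail tumors, where tumor 14 had few ligand reads in all. Hbegf held the largest share in all LHP tumors, in S7HP tumors 11 and 12 and in S7HP+Snail tumors 14 and 15, up to 83.3% in tumor 14, while Btc led in S7HP tumor 9 and Ereg in S7HP+Snail tumor 13.

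**Figure D2:**
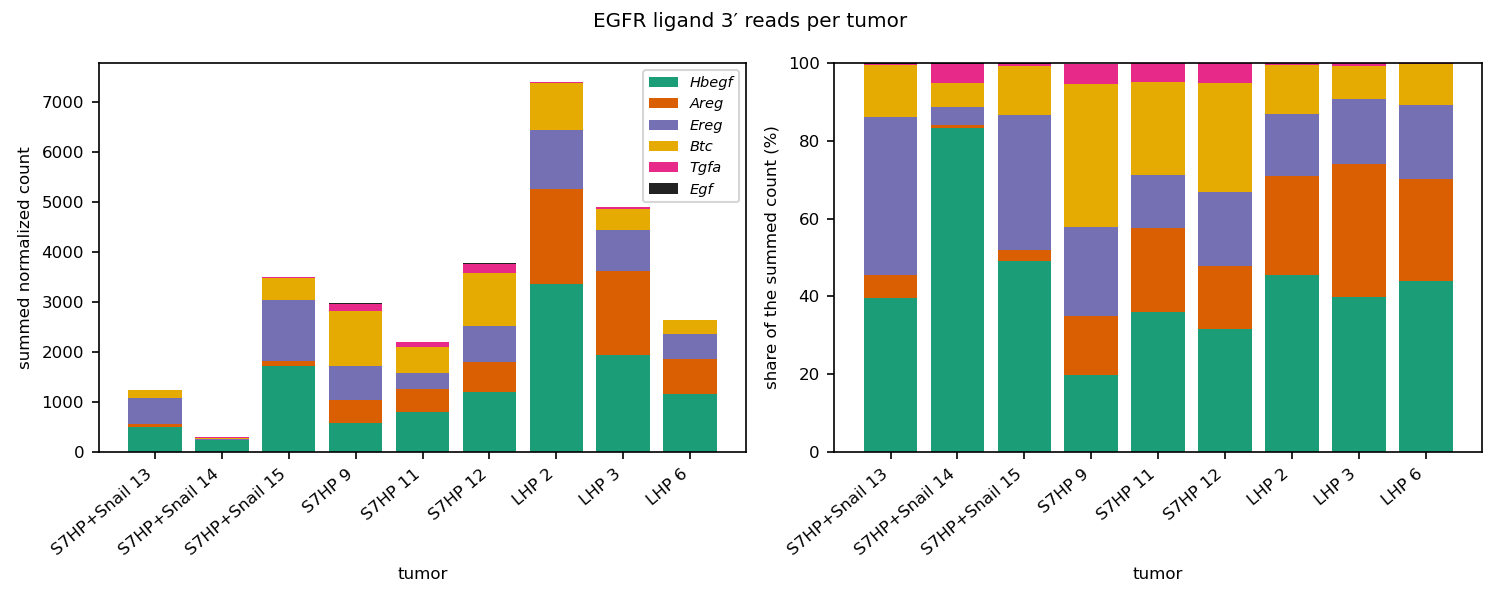
Summed normalized count of the 6 EGFR ligands in each tumor (left) and the share of each ligand in that sum (right, in percent), with S7HP+Snail, S7HP and LHP tumors from left to right. Areg shares run from 0.653% to 5.93% in S7HP+Snail, 15.2% to 21.6% in S7HP and 25.5% to 34.4% in LHP tumors, and the sum in tumor 14 is 289.3.

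The tested receptors had smaller standard errors, at 0.37, than the tested ligands, at 0.66 to 1.31. Egfr (chromosome 11, 16752203 to 16918158, plus strand) had log2 levels of 9.61, 10.01 and 10.07 in S7HP+Snail tumors 13, 14 and 15, 11.33, 10.43 and 9.82 in S7HP tumors 9, 11 and 12, and 10.57, 10.87 and 11.32 in LHP tumors 2, 3 and 6. The S7HP tumors overlapped with both other groups, and the S7HP+Snail tumors were below every LHP tumor. S7HP+Snail differed from LHP by -1.02 ± 0.37 (SE), about 2.04-fold lower, without passing (limma, Benjamini-Hochberg adjusted p = 0.122). S7HP differed from LHP by -0.39 (95% interval -1.22 to 0.43) and S7HP+Snail from S7HP by -0.63 (95% interval -1.46 to 0.19). These moved to -0.80 and -0.23 without S7HP tumor 9, and to -0.04 and -0.99 without S7HP tumor 12. Within S7HP+Snail the SD of Egfr was 0.253, larger than for 23.5% of tested genes, so tumor 14 did not stand apart for the receptor as it did for 4 ligands.

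Erbb2, the receptor with no ligand of its own, lies on chromosome 11 from 98412470 to 98437716 on the plus strand. Its log2 level was 9.40, 8.0 and 8.39 in S7HP+Snail tumors 13, 14 and 15, 8.0, 7.57 and 8.36 in S7HP tumors 9, 11 and 12, and 7.74, 7.51 and 7.89 in LHP tumors 2, 3 and 6. The S7HP+Snail tumors were above every LHP tumor, and S7HP overlapped with both. S7HP+Snail differed from LHP by 0.89 ± 0.37 (SE; adjusted p = 0.175), from S7HP by 0.63 ± 0.37 (adjusted p = 0.423), and S7HP from LHP by 0.26 ± 0.37 (adjusted p = 0.663), with no call (limma, Benjamini-Hochberg). Erbb2 overlaps Mien1 on the opposite strand, and whether the counting used strand is not given in the sources used here, so reads in the overlap cannot be told apart. Mien1 averaged 9.64 ± 0.45 in S7HP+Snail, 10.48 ± 0.26 in S7HP and 9.16 ± 0.37 in LHP tumors (log2, SD, n = 3 each). Annotated antisense or other opposite-strand transcripts also overlap Egf, Egfr, Ereg, Errfi1 and Tgfa.

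Erbb3 was at 0.42, 0 and 0 in S7HP+Snail tumors 13, 14 and 15, 3.27, 0 and 2.19 in S7HP tumors 9, 11 and 12, and 1.87, 0 and 0 in LHP tumors 2, 3 and 6. It was listed at 0 in at least 1 tumor of every group and did not pass the filter. Erbb4, the remaining receptor of the family, was listed at 0 in all 9 tumors.

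Errfi1 (chromosome 4, 150853919 to 150868892, plus strand) is itself switched on by EGFR signaling as a brake. Its log2 level was 10.84, 10.52 and 12.55 in S7HP+Snail tumors 13, 14 and 15, 12.50, 11.39 and 11.91 in S7HP tumors 9, 11 and 12, and 10.90, 11.15 and 10.30 in LHP tumors 2, 3 and 6. Every S7HP tumor was above every LHP tumor, and S7HP+Snail tumor 15 was the highest of all, with tumors 13 and 14 in the LHP range. S7HP differed from LHP by 1.15 ± 0.51 (SE), 2.22-fold, without passing (limma, Benjamini-Hochberg adjusted p = 0.143). That difference passed with only the 6 libraries compared (adjusted p = 0.0366) and without S7HP+Snail tumor 15 (adjusted p = 0.0383), in a range up to 0.352 (limma, Benjamini-Hochberg). S7HP+Snail differed from S7HP by -0.63 (95% interval -1.77 to 0.52), and from LHP by 0.53 (95% interval -0.62 to 1.67), which became -0.10 without tumor 15.

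**Figure D3:**
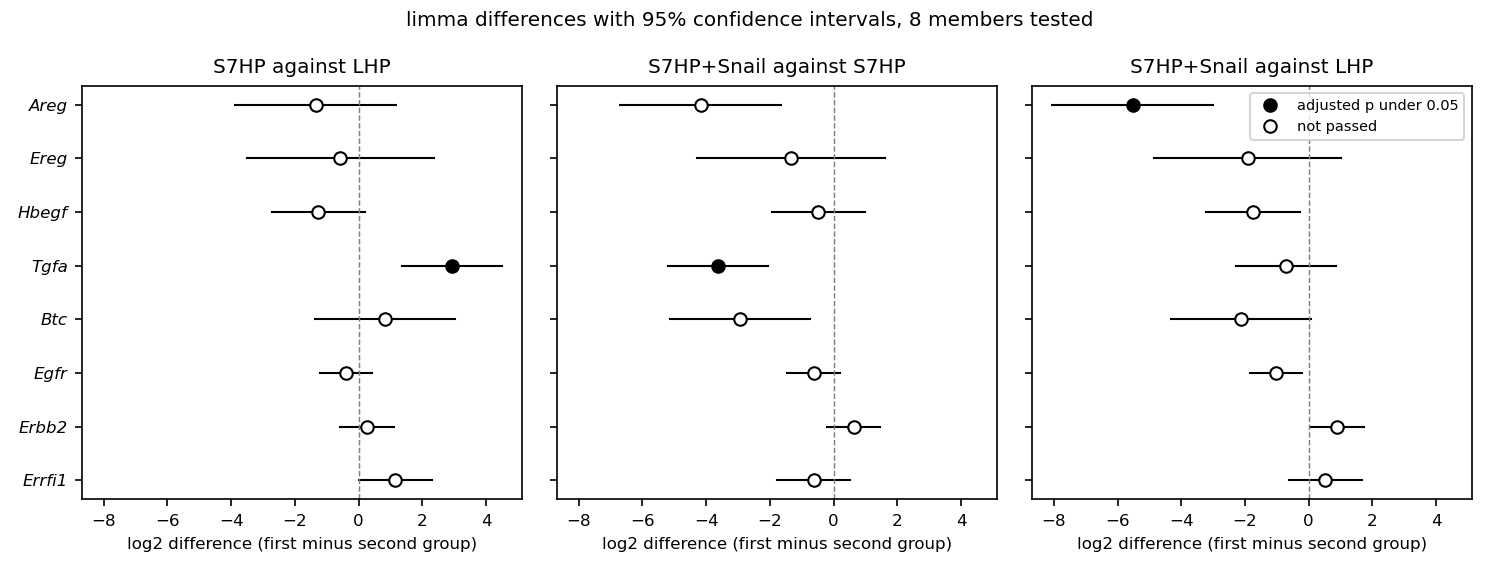
Differences in log2 level for the 8 tested members, with 95% intervals from limma, for S7HP against LHP, S7HP+Snail against S7HP and S7HP+Snail against LHP. Filled points passed an adjusted p of 0.05: Tgfa at 2.92 and -3.63 and Areg at -5.53. The receptors have the narrowest intervals, and those of Areg and Ereg are the widest.

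In each comparison 3 of the 8 tested members had no overlap between the groups: Areg, Tgfa and Errfi1 in S7HP against LHP, Areg, Tgfa and Btc in S7HP+Snail against S7HP, and Areg, Egfr and Erbb2 in S7HP+Snail against LHP. Over all tested genes the share without overlap was 42.1% in the first comparison (20.9% higher, 21.3% lower), 20.5% in the second (9.53% higher, 11% lower) and 30.5% in the last (14.7% higher, 15.8% lower), so the count in the first and the last comparison is near the background. With only 8 genes, the count in the second is too small to be set apart from its background.

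Other genes of the ERBB pathway were read from 4 lists, whose counts stand beside 19% of all tested genes called in S7HP against LHP, 2.3% in S7HP+Snail against S7HP and 7.22% in S7HP+Snail against LHP. Of the neuregulins, epigen and Erbb4 (6 genes), Nrg4 alone passed the filter. Nrg4 encodes a neuregulin that binds ERBB4. Its log2 level was 5.11, 4.45 and 6.87 in S7HP+Snail tumors 13, 14 and 15, 9.02, 6.48 and 6.38 in S7HP tumors 9, 11 and 12, and 2.94, 3.86 and 3.42 in LHP tumors 2, 3 and 6. All S7HP and S7HP+Snail tumors were above the LHP tumors. Nrg4 rose by 3.89 ± 0.82 (SE) in S7HP against LHP (limma, Benjamini-Hochberg adjusted p = 0.0116). It differed by 2.07 ± 0.82 in S7HP+Snail against LHP without passing (limma, Benjamini-Hochberg adjusted p = 0.154), and its gene overlaps Fbxo22 on the other strand.

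Among ligand-releasing proteases and their partners, 10 of 11 were tested. In S7HP against LHP, Rhbdf2 rose and Adam19 and Adam12 fell, and the list's median was -0.64, beside 0.02 over all tested genes. Rhbdf2 encodes iRhom2, which carries the protease ADAM17 to the cell surface. Its log2 level averaged 8.61 ± 0.11 in S7HP+Snail, 10.29 ± 0.38 in S7HP and 9.34 ± 0.26 in LHP tumors (SD, n = 3 each). It rose by 0.95 ± 0.25 (SE) in S7HP against LHP and fell by 1.68 ± 0.25 in S7HP+Snail against S7HP (limma, Benjamini-Hochberg adjusted p = 0.0278 and 0.0115). Centring on reference genes ended the call of the rise, as did leaving out LHP tumor 3, LHP tumor 6, S7HP tumor 9 or S7HP tumor 12. Over the alternatives its adjusted p ran from 0.00983 to 0.0975 (limma, Benjamini-Hochberg). Leaving out S7HP tumor 12 ended that of the fall (limma, Benjamini-Hochberg adjusted p = 0.0508, in a range from 0.0110). Adam17 itself averaged 13.91 ± 0.20 in S7HP+Snail, 13.53 ± 0.23 in S7HP and 13.18 ± 0.24 in LHP tumors (log2, SD, n = 3 each). In S7HP+Snail it differed by 0.38 ± 0.22 (SE) from S7HP and by 0.73 ± 0.22 from LHP, with no overlap and without passing (limma, Benjamini-Hochberg adjusted p = 0.411 and 0.0792).

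Adam10, a sheddase that releases Egf and Btc precursors, averaged 11.73 ± 0.38 in S7HP+Snail, 10.50 ± 0.32 in S7HP and 10.34 ± 0.28 in LHP tumors (log2, SD, n = 3 each). It rose in S7HP+Snail by 1.23 ± 0.27 (SE) against S7HP and by 1.39 ± 0.27 against LHP (limma, Benjamini-Hochberg adjusted p = 0.0478 and 0.0177). The first of these calls was lost in 12 of 17 alternatives (adjusted p between 0.0291 and 0.144), and the second without LHP tumor 6 (adjusted p = 0.0736, in a range from 0.0125; limma, Benjamini-Hochberg). Adam10 and Rhbdf2 were the 2 genes of this list called in S7HP+Snail against S7HP, with a list median of -0.05 beside -0.02 over all tested genes.

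Adam19 and Adam12, metalloproteases with a disintegrin domain, had their highest group means in LHP. Adam19 averaged 9.40 ± 0.21 in S7HP+Snail, 8.09 ± 0.73 in S7HP and 11.37 ± 0.44 in LHP tumors, and Adam12 averaged 4.63 ± 1.02, 4.49 ± 0.39 and 7.70 ± 0.12 in the same groups (log2, SD, n = 3 each). They fell by 3.28 ± 0.37 and 3.20 ± 0.53 (SE) in S7HP against LHP (limma, Benjamini-Hochberg adjusted p = 0.000809 and 0.00459). In S7HP+Snail against LHP, Adam19 (-1.97 ± 0.37), Adam12 (-3.06 ± 0.53) and Adam15 (-1.46 ± 0.33) fell and Adam10 rose, with a list median of -1.05 beside -0.0013 over all tested genes (limma, Benjamini-Hochberg adjusted p = 0.0158, 0.0118 and 0.0315 for the falls). Without LHP tumor 6 these 3 calls were lost (adjusted p = 0.0650, 0.0549 and 0.109), and Adam15 also missed the threshold without LHP tumor 2, S7HP+Snail tumor 14 or S7HP+Snail tumor 15, and in 7 of 17 alternatives altogether, in a range from 0.0249 (limma, Benjamini-Hochberg).

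All 15 genes listed as regulators of ERBB receptors were tested, and a change in one does not tell whether receptor activity rose or fell. In S7HP against LHP 3 rose and 2 fell, with a median of -0.14, where 9.47% of all tested genes were called higher and 9.54% lower, so the count of falls is near the background. Cblc, a ubiquitin ligase of epithelial cells, rose by 2.49 ± 0.32 (SE) and the receptor phosphatase Ptprk by 1.41 ± 0.32, while Ubash3b, a phosphatase that binds CBL, fell by 2.31 ± 0.34 and the ubiquitin ligase Cblb by 1.34 ± 0.34 (limma, Benjamini-Hochberg adjusted p = 0.00138, 0.0159, 0.00255 and 0.0242). Ptprk and Cblb missed the threshold when LHP tumor 3, LHP tumor 6 or S7HP tumor 9 was left out, and Cblb also without S7HP tumor 11 (highest adjusted p = 0.0613 for Ptprk and 0.0885 for Cblb; limma, Benjamini-Hochberg). In S7HP+Snail, 0 of 15 were called against S7HP (limma, 3 at an unadjusted p under 0.05, median -0.10), and Ubash3b alone fell against LHP, near the 7.22% background, by 2.69 ± 0.34 (limma, Benjamini-Hochberg adjusted p = 0.00332, list median 0.24).

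Of 12 adaptors that bind active ERBB receptors 10 were tested, and Grb7 and Nck1 rose in S7HP against LHP (list median -0.14). These 2 calls among 10 genes are near the 19% of all tested genes called in that comparison. Grb7, an adaptor that binds ERBB2, lies next to it: Erbb2, Mien1 and Grb7 are the 3 protein-coding genes within 42.9 kb of chromosome 11. The log2 level of Grb7 was 8.50, 8.82 and 7.66 in S7HP+Snail tumors 13, 14 and 15, 10.18, 10.55 and 10.35 in S7HP tumors 9, 11 and 12, and 6.54, 6.83 and 7.57 in LHP tumors 2, 3 and 6. No pair of groups overlapped. Grb7 rose by 3.38 ± 0.36 (SE), 10.4-fold, in S7HP against LHP and fell by 2.04 ± 0.36 in S7HP+Snail against S7HP (limma, Benjamini-Hochberg adjusted p = 0.000691 and 0.0226), and the fall lost its call without S7HP tumor 9, 11 or 12 (adjusted p up to 0.0948). The same comparison of S7HP with LHP gave 0.26 ± 0.37 for Erbb2 and 1.32 ± 0.29 for Mien1, which was called (limma, Benjamini-Hochberg adjusted p = 0.0139). Nck1, an adaptor of the actin machinery, rose by 0.96 ± 0.30, a call lost in 11 of 17 alternatives (limma, Benjamini-Hochberg adjusted p = 0.04997, in a range from 0.0230 to 0.167). Grb7 was the only adaptor called in S7HP+Snail against S7HP (list median 0.17), and 0 of 10 were called in S7HP+Snail against LHP (limma, 2 at an unadjusted p under 0.05, median 0.13).

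**Figure D4:**
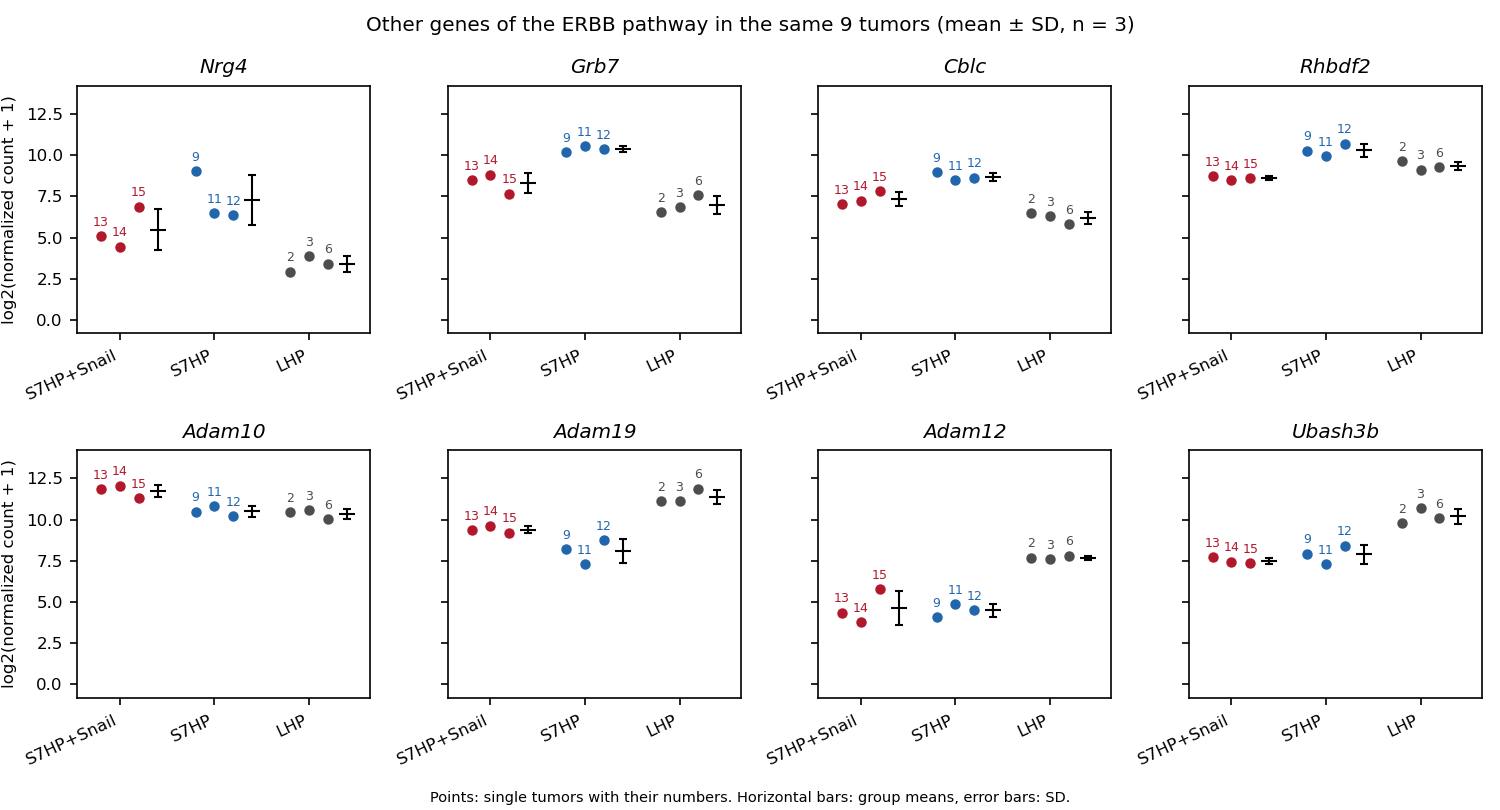
Level of 8 other ERBB pathway genes in every tumor, as log2(normalized count + 1), with S7HP+Snail, S7HP and LHP from left to right. Points are single tumors with their numbers and bars the mean ± SD (n = 3). Group means of Nrg4, Grb7, Cblc and Rhbdf2 are highest in S7HP, that of Adam10 in S7HP+Snail, and those of Adam19, Adam12 and Ubash3b in LHP tumors.

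Profiles most like those of the called members were ranked by the root mean square difference between log2 levels over the 9 tumors, each gene centred on its own mean. Nearest to Tgfa, whose levels spanned 5.25, were Rragd (0.598), Bhlhe41 (0.655) and Gldc (0.806). Rragd was at 5.21 to 5.91 in S7HP+Snail, 8.47 to 8.87 in S7HP and 4.89 to 6.67 in LHP tumors. Nearest to Areg, whose levels spanned 9.35, were the natural killer receptor genes Klra15 (1.06) and Klra4 (1.09) and the neurofilament gene Nefl (1.16). Klra15 and Klra4 belong to a family of closely similar copies that may share reads. Klra4 was at 4.57, 2.26 and 6.99 in S7HP+Snail tumors 13, 14 and 15, at 6.46 to 8.77 in S7HP and at 10.40 to 11.19 in LHP tumors, so it too was lowest in tumor 14. Of 8 listed lymphocyte and natural killer markers 5 were tested, and 0 were called in any comparison. Their median difference was 1.9 in S7HP against LHP, -0.86 in S7HP+Snail against S7HP and 0.36 in S7HP+Snail against LHP. Among them Nkg7 differed by 2.52 ± 1.76 (SE), -2.16 ± 1.76 and 0.36 ± 1.76 in the same order of comparisons. Ptprc, of the same list, differed by -0.43 ± 0.47, 0.11 ± 0.47 and -0.32 ± 0.47. A part of these cells in the Areg profile was not tested.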

How the data were processed

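QuantSeq 3′ libraries were prepared from Trizol-extracted RNA, per the labels' protocols. Bowtie2, edgeR and mm10 are named in the submitters' processing notes without role or version; what counted the reads, and on which annotation, is not given in the sources used here. The files as deposited hold log2(quantile-normalized count + 1), judged from the values: below 1000, 9 times the unlogged value was whole for 100% of values (tolerance 0.001), and library totals ran from 19910396 to 19911234. The authors' step removed library depth, so no counting interval is given.

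Genes that reached a log2 value of 4 in 3 or more libraries were fitted together over 9 tumors in limma 3.58.1 (R 4.3.3) with eBayes, an intensity trend and robust variances (6 residual degrees of freedom), two-sided. Standard errors are limma's and SD is over 3 tumors. Fold changes are on the log2(value + 1) scale and understate changes of low genes. The procedure was tested on simulated data, drawn from normal distributions with the same spread of a gene in every group. Members with unequal spread, such as Areg, lie outside that setting. Alternatives were other filters, a pseudocount, scalings, variance models and libraries. Named were all members, called members of the pathway lists (up to 4 per list and comparison) and 3 like profiles per called member with a mean log2 level of at least 6. Mien1, Epgn and Erbb4 were named for their position or family, and Adam17 for its link to Rhbdf2. The members and lists were chosen with earlier results of these data known. Positions come from GENCODE M21 (GRCm38, the assembly of mm10) and promoters from RefSeq, with 7 of 10 members matched. Plots used matplotlib 3.10.9 (Python 3.11.15).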

Additional observations from a re-analysis of the deposited data

How the results depend on the processing

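Each of 24 member differences was recomputed under 17 alternatives, and of the 408 values 383 kept their direction and side of the threshold, 13 lost a call, 9 gained one and 3 turned round. Those 3 were Ereg at 0.57 and Hbegf at 0.16 in S7HP+Snail against S7HP without tumor 14, and Errfi1 at -0.10 in S7HP+Snail against LHP without tumor 15; they were not called. Leaving out 1 library put these 3 differences between -2.61 and 0.57, -1.25 and 0.16, and -0.10 and 0.92. With only the 6 libraries compared, the number of called members was 3 in S7HP against LHP, 0 in S7HP+Snail against S7HP (limma, 3 members at an unadjusted p under 0.05 with all libraries) and 0 in S7HP+Snail against LHP (4 members), and with a pseudocount of 10 it was 2 in S7HP+Snail against S7HP. Leaving out 1 library gave 0 to 2 called members in S7HP against LHP, 0 to 3 in S7HP+Snail against S7HP and 0 to 2 in S7HP+Snail against LHP, where 1 was called in each with all libraries. The cause was not tested. Centring on 10 reference genes moved the median of all tested genes to 0.228 and 0.172 in S7HP+Snail against S7HP and against LHP and changed no member's call. These reference genes were not all steady. Hprt rose by 0.92 and Ywhaz fell by 0.96 in S7HP against LHP, both called (limma, Benjamini-Hochberg adjusted p = 0.0269 and 0.0302). Pgk1 differed by -1.56 ± 0.60 (SE) in S7HP+Snail against S7HP without passing, and 0 of the 10 were called in the other comparisons. Library weights were chosen after seeing the data. Without a filter, Egf and Erbb3 were called in no comparison (limma, Benjamini-Hochberg adjusted p at least 0.397, 0 of 6 values at an unadjusted p under 0.05). No paired analysis was possible because the groups share no tumor number. With 3 tumors a group and depth removed by the normalization, small differences and the levels of Egf and Erbb3 could not be resolved.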
